A study of Mus musculus with 6 samples.

Results

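The genes described here make fatty acids and join them into triglycerides. They are 34 genes given by symbol, each matched exactly to the array's gene annotation and read from 1 probe set, the one with the highest mean over the 6 arrays, out of 18193 genes measured in this way. The cells were mouse mesenchymal stem cells, stromal cells from a commercial source that can become fat, bone or cartilage. Irradiated cultures received 12 h of pulsed broadband terahertz radiation centred near 10 THz, with pulses of 35 fs at 1 kHz and an average of 1 mW/cm2. Control cultures stood beside them without irradiation. Both groups had been given rosiglitazone (1 µM), insulin (5 µg/ml), the phosphodiesterase inhibitor IBMX (100 µM) and dexamethasone (1 µM) again 48 h earlier, a mixture that drives fat cell formation, and both were held at 26 to 27 °C. There were 3 independent experiments, each with 1 irradiated and 1 control array, and no source used here gives strain, sex or passage.

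Cells build fatty acids in the cytosol from acetyl-CoA, which is carried out of mitochondria as citrate, and the chain is extended at the expense of NADPH. New chains are elongated and desaturated, and then attached one after another to a glycerol phosphate backbone to give triglyceride. In fat cells many of these genes are switched on during differentiation. Insulin and glucose keep many of them, though not Pck1, high through the transcription factors SREBP and ChREBP.

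The labelled cell type was checked against marker genes. Of 14 measured fat cell markers 12 had a mean log2 level of at least 6 in 1 group, the level taken here as expressed, and so had 10 of 11 stromal markers and 14 of 14 macrophage markers. Thy1, a usual marker of mesenchymal stem cells, was dim at 4.07 in irradiated and 4.11 in control cultures. Of 4 osteoblast markers Alpl and Ibsp reached 6, at 8.50 and 8.54 in irradiated and 8.51 and 8.88 in control cultures, and of 5 epithelial markers Epcam did, in both groups. None of 7 endothelial and none of 4 liver markers reached 6. In such a mixture of markers fewer cells of a type and less RNA per cell cannot be told apart.

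No member passed the test between irradiated cells and their own controls. The adjusted p in limma, with the experiment as a block, lay between 0.538 and 0.988 over the 34 genes. None of 45037 probe sets passed (0.0%), and none of 18193 genes did (0.0%). At an unadjusted p under 0.05 limma gave 3 members, Mid1ip1, Fasn and Gpd1l, all with lower values in irradiated cells, or 8.82% of the members, where 4.61% of all genes were lower at that level. All 3 were expressed, and of 9302 expressed genes 584 were lower at that level. With the experiment as a random block 2 members were below that level, Fasn (p of 0.012) and Acly (0.0373), while Mid1ip1 (0.131) and Gpd1l (0.057) were not, and without a block Fasn alone was (limma). There was no member higher at that level, against 3.7% of all genes. By limma, 24 of the 34 mean differences were below 0, against 47.9% of all genes. The median log2 difference was -0.09 for the members and 0.0067 for all genes, with a median SE of 0.11 per member. Of the 34 genes 30 reached a mean of 6 in 1 group, and Acacb, Lpin3, Pck1 and Thrsp did not.

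The members were lower in irradiated cells in all 3 experiments for 8 genes, Mid1ip1, Fasn, Gpd1l, Acly, Elovl6, Scd2, Slc25a1 and Pck1, or 23.5%, where 15.1% of all genes were. Among expressed genes only, 7 of 30 members did so, against 18.7% of 9302 genes. Elovl5, Agpat3 and Fads3 were higher in all 3, or 8.82%, where 15.7% of all genes were, and 18.6% of expressed genes. The remaining 23 members differed in sign between experiments or were equal in 1 of them.

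**Figure D1:**
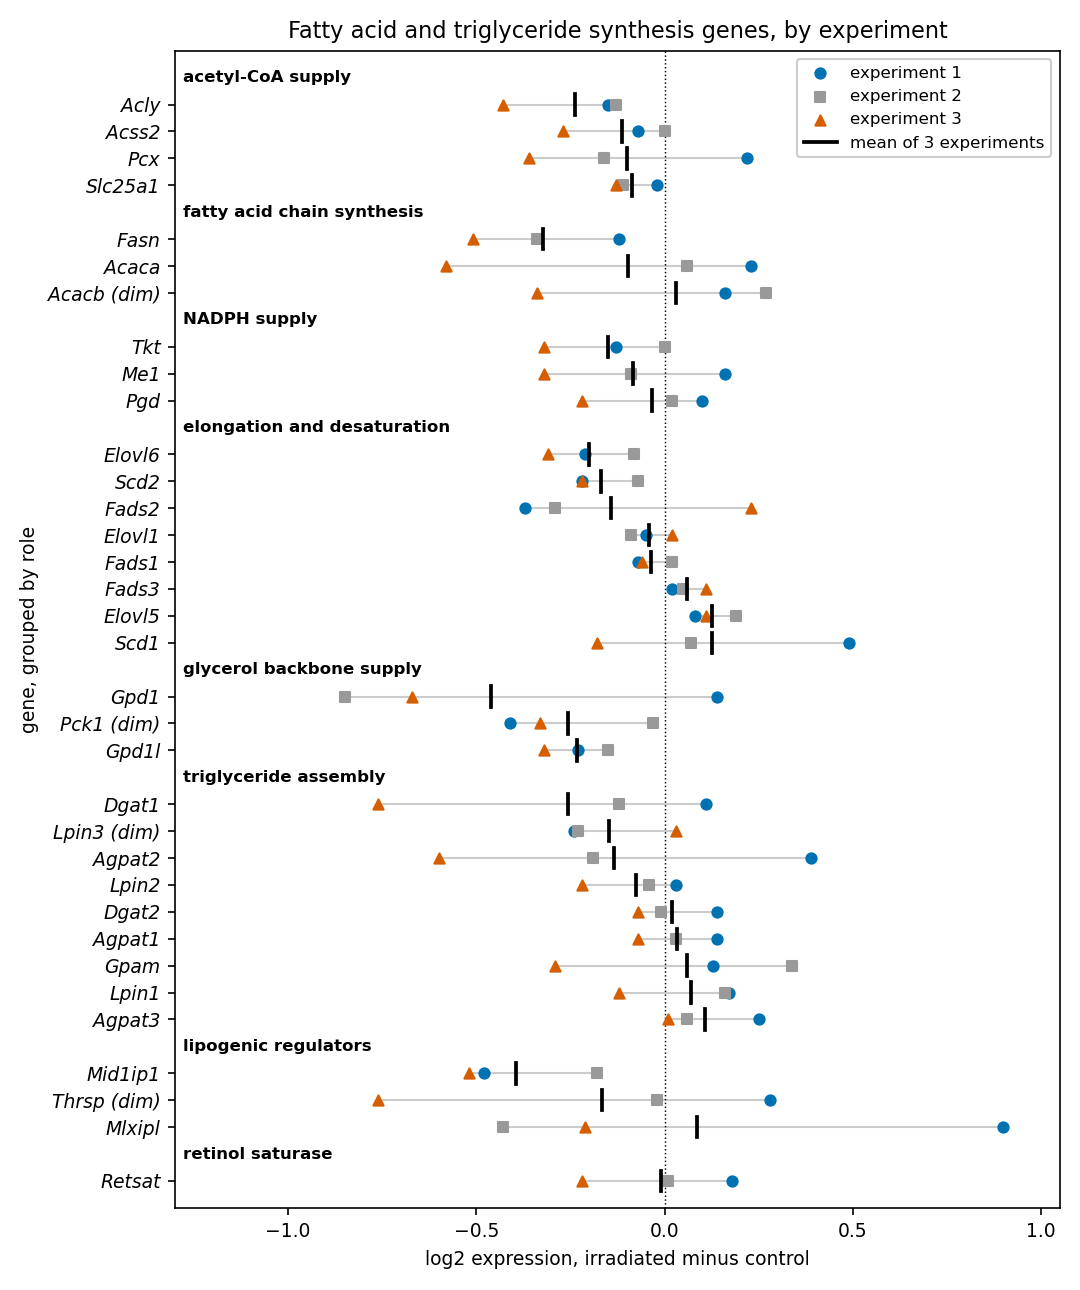
Log2 expression in the irradiated minus the control culture (horizontal axis) for each of the 34 genes (rows, grouped by role and ordered by mean). Each symbol is 1 experiment, the black bar is the mean of the 3, and genes marked dim did not reach a mean level of 6 in either group. Mid1ip1, Fasn and Acly lie left of 0 in every experiment, while Mlxipl and Agpat2 spread across it, and experiment 3 gives the leftmost symbol for most genes.

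Promoter windows are shown for 4 members that were lower in all 3 experiments and for Elovl5, which was higher, since these genes had differences of 1 sign and clear signal. Pck1, near background, was left out. RefSeq (GRCm38.p6) gave windows of 250 bases before to 50 after the start site for 28 of the 34 members. Capitals mark matches, on either strand, to 5 motifs: the sterol response element TCACNCCAC read by SREBP, the E-box CACGTG, the CCAAT box, the GC box GGGCGG and the cAMP response element TGACGTCA. Each window runs 5′ to 3′ along its gene.
Mid1ip1, chrX:10717115-10717414, plus strand: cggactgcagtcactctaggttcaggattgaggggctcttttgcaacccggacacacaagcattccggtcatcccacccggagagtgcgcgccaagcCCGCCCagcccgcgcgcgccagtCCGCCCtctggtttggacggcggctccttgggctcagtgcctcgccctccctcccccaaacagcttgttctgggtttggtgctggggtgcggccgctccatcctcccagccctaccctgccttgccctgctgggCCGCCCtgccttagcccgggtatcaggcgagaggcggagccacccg
Fasn, chr11:120824498-120824797, minus strand: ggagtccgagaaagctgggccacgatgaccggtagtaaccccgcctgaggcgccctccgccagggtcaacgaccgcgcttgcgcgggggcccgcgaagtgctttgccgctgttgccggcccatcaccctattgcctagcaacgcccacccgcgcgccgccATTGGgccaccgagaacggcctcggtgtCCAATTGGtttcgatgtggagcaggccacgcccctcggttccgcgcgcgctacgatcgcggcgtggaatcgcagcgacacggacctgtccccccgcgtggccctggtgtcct
Gpd1l, chr9:114933938-114934237, minus strand: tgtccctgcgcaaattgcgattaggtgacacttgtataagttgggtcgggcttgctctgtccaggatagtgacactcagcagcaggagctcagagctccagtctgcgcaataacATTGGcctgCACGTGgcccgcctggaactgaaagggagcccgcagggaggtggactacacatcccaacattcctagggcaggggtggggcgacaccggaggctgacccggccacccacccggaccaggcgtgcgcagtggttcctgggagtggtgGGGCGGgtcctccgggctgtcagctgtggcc
Acly, chr11:100527951-100528250, minus strand: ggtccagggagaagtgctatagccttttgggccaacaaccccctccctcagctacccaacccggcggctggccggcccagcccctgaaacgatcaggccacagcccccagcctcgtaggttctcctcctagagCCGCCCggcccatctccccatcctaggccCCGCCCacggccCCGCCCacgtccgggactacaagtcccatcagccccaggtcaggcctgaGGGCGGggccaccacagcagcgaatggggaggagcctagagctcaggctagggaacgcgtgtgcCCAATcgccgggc
Elovl5, chr9:77917115-77917414, plus strand: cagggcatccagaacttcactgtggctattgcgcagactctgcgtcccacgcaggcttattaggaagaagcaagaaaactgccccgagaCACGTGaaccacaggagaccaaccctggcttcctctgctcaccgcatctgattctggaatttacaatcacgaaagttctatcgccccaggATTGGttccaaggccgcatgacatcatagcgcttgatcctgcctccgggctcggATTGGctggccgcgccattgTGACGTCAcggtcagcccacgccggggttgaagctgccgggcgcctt

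These windows do not share a single motif. Fasn held 3 CCAAT boxes, beginning 90, 62 and 59 bases before the start site, and the last 2 overlap on opposite strands. Acly held 4 GC boxes and a CCAAT box, and Mid1ip1 held 3 GC boxes and none of the other motifs. Gpd1l had an E-box beginning 127 bases before the start, beside a CCAAT box, and a GC box after it. Elovl5 held an E-box, 2 CCAAT boxes and a cAMP response element just after the start. Over 38 windows of the members, 60.5% held a GC box, 47.4% a CCAAT box and 18.4% an E-box, where 35.7%, 37.4% and 7.15% of 32851 windows of all genes did. The sterol response element in this spelling was found in 1 member window, of Mlxipl (2.63%, against 1.24% of all windows), and the cAMP response element in that of Elovl5 alone (2.63%, against 1.79%). A match to these letters is a description of the window and no evidence of binding.

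Acetyl-CoA supply came lower on average in each of its 4 genes. Acly, which splits citrate into acetyl-CoA and oxaloacetate, read 10.82, 10.89 and 10.67 in irradiated cultures of experiments 1, 2 and 3, against 10.97, 11.02 and 11.10 in their controls. The groups did not overlap. This was a log2 difference of -0.24 ± 0.11 (SE), 1.18-fold lower, with an adjusted p of 0.636 in limma, and -0.14 without experiment 3. Of its other probe sets those at levels of 10.8 and 8.17 differed by -0.29 each (unadjusted limma p of 0.0267 and 0.0323), with all 3 experiments below 0, so that the bright probe sets for this enzyme gave like values. Slc25a1, the mitochondrial citrate carrier, read 8.67, 8.56 and 8.42 in irradiated and 8.69, 8.67 and 8.55 in control cultures, which overlapped, and differed by -0.09 (95% interval -0.31 to 0.14). Acss2, which makes acetyl-CoA from acetate, differed by -0.11, with experiment 2 at 0.00. Its second expressed probe set spread more widely, at 0.14, -0.30 and -0.84. Pcx, which makes oxaloacetate from pyruvate in mitochondria, differed by 0.22, -0.16 and -0.36 in the 3 experiments. The 4 array control probe sets for the same enzyme, which entered no fit, averaged 0.17, 0.02 and -0.28, the same order.

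Chain synthesis itself rests on a carboxylase and on the synthase. Fasn, the fatty acid synthase that assembles palmitate, read 9.69, 9.65 and 9.61 in irradiated cultures, against 9.81, 9.99 and 10.12 in controls. No irradiated value reached a control value, and the spread lay in the controls, with SDs of 0.04 in irradiated and 0.16 in control cultures (n = 3 each). The mean difference was -0.32 ± 0.11 (SE; 95% interval -0.59 to -0.05), 1.25-fold lower, with an adjusted p of 0.575 in limma. It was -0.425 without experiment 1, -0.315 without experiment 2 and -0.23 without experiment 3, with unadjusted limma p of 0.0299, 0.104 and 0.102. Acaca, the cytosolic acetyl-CoA carboxylase that sets the rate of the pathway, did not follow Fasn. It read 8.32, 8.57 and 8.21 in irradiated and 8.09, 8.51 and 8.79 in control cultures, with overlap, and its differences of 0.23, 0.06 and -0.58 gave a mean of -0.10 (95% interval -0.49 to 0.30). Acacb, the mitochondrial form of the carboxylase, was dim at 4.50 in irradiated and 4.47 in control cultures. Groups without overlap were found for 2 members with lower values, Fasn and Acly (5.88%), where 5.4% of all genes were so, and for 1 with higher values, Agpat3 (2.94%), against 4.56%. These shares lie close to the background.

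**Figure D2:**
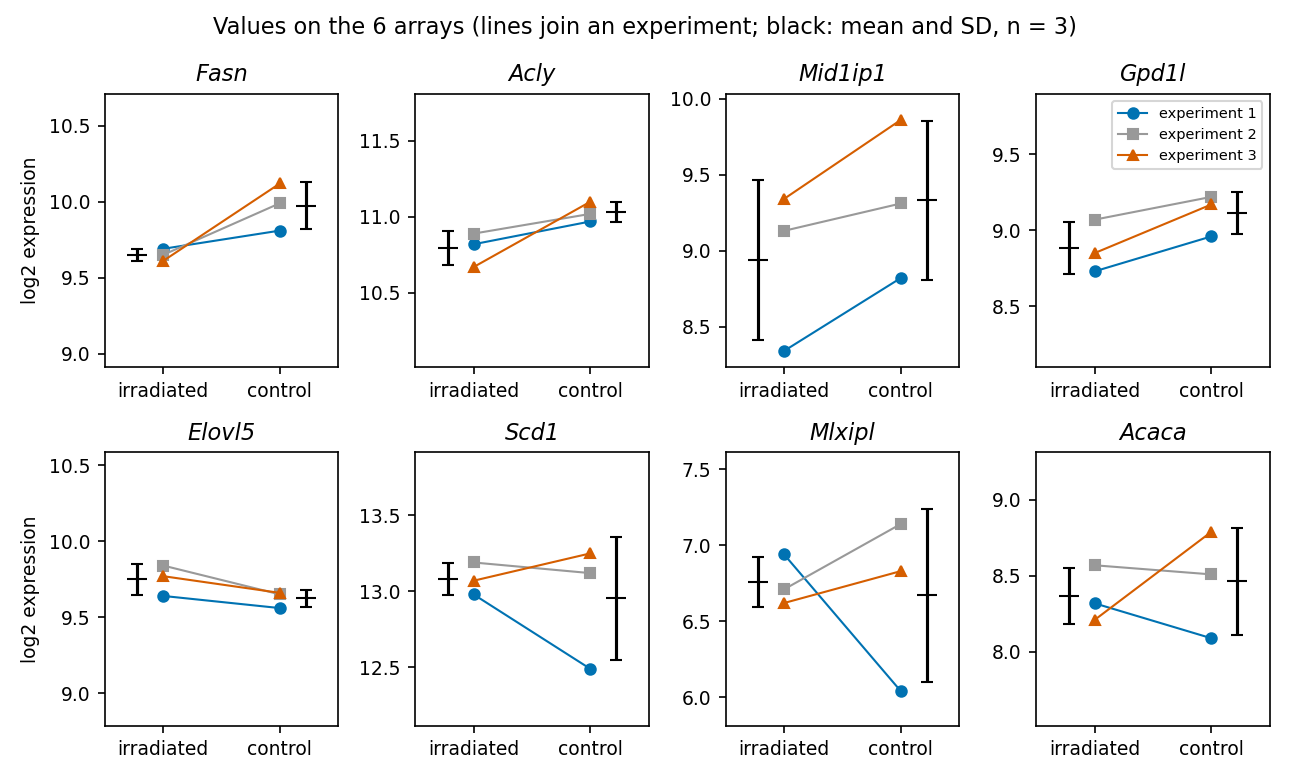
Log2 expression (vertical axis, 1.8 log2 units in every panel) of 8 genes on the irradiated (left) and control (right) array of each experiment, joined by a line, with the mean and SD of 3 arrays in black. Fasn and Acly separate the groups, Mid1ip1 differs in 1 direction on a wide base, and the lines of Scd1, Mlxipl and Acaca cross, with control values farther apart than irradiated ones.

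The genes of NADPH supply and of the pentose phosphate pathway were near their controls. Tkt, the transketolase of the pentose phosphate pathway, differed by -0.13, 0.00 and -0.32, Pgd, the phosphogluconate dehydrogenase, by 0.10, 0.02 and -0.22, and Me1, the cytosolic malic enzyme, by 0.16, -0.09 and -0.32. Their means lay between -0.15 and -0.03, and that of Tkt was -0.065 without experiment 3. All 3 were lower in experiment 3, and the 3 other probe sets of Pgd were likewise below 0 in that experiment (-0.17, -0.21 and -0.17). The other probe sets of Tkt disagreed. That at a level of 10.3 gave -0.20, -0.04 and -0.27, and that at 6.28 gave 0.04, 0.29 and 0.15.

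Elongases and desaturases went both ways. Elovl6, which lengthens palmitate to stearate, read 7.07, 6.98 and 6.68 in irradiated and 7.28, 7.06 and 6.99 in control cultures. Its ranges overlapped, and the difference was -0.20 ± 0.10 (SE), with an adjusted p of 0.655 in limma, and -0.119 with all its probe sets averaged. Scd2, a stearoyl-CoA desaturase, read 10.88, 10.78 and 10.79 in irradiated and 11.10, 10.85 and 11.01 in control cultures, a difference of -0.17 ± 0.10 (SE). A single irradiated value, in experiment 1, lay above the lowest control value, and the probe set at a level of 7.57 gave a like difference of -0.19. Scd1, the main stearoyl-CoA desaturase of fat cells, read 12.98, 13.19 and 13.07 in irradiated and 12.49, 13.12 and 13.25 in control cultures. The control of experiment 1 stood apart as the low value, and without that experiment the mean of 0.13 became -0.055. The second Scd1 probe set, at a level of 8.97, differed by 0.42, -0.38 and -0.68, so the probe sets agree on experiments 1 and 3 and disagree on experiment 2. Elovl5, which elongates polyunsaturated chains, read 9.64, 9.84 and 9.77 in irradiated and 9.56, 9.65 and 9.66 in control cultures, with a narrow overlap. Its difference was 0.13 (95% interval -0.10 to 0.35), and its other probe set gave 0.01. Fads3 read 9.60, 9.22 and 9.15 in irradiated and 9.58, 9.17 and 9.04 in control cultures. That difference of 0.06 was smaller than the spread between experiments, and both other Fads3 probe sets averaged below 0. Fads1 and Fads2, which desaturate polyunsaturated chains, differed by -0.04 and -0.14, and Elovl1, which makes very long chains, by -0.04.

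The glycerol backbone genes were lower on average in each of 3 members, of which 2 were expressed. Gpd1l, related to the enzyme that makes glycerol phosphate from a glycolytic intermediate, read 8.73, 9.07 and 8.85 in irradiated and 8.96, 9.22 and 9.17 in control cultures. The ranges overlapped, yet each irradiated culture was below its own control, by -0.23 ± 0.10 (SE), with an adjusted p of 0.619 in limma. The other Gpd1l probe set, dim at a level of 5.54, gave -0.03, -0.25 and 0.00, a mean of -0.09. Gpd1 itself, singled out after its values were seen, had a mean difference of -0.46 ± 0.19 (SE), made of 0.14, -0.85 and -0.67. That mean was -0.76 without experiment 1, -0.265 without experiment 2 and -0.281 with all probe sets averaged. It read 8.59, 8.68 and 8.95 in irradiated and 8.45, 9.53 and 9.62 in control cultures. The irradiated cultures thus lay close together, and the control of experiment 1 alone was no higher than they were. Its next probe sets, at levels of 6.32 and 5.88, repeated this with 0.14, -0.54 and -0.77, and with 0.08, -0.42 and -0.41. Pck1, which in fat cells feeds glycerol phosphate from pyruvate, read 2.62, 3.19 and 2.96 in irradiated and 3.03, 3.22 and 3.29 in control cultures. All of these are near background, where the difference of -0.26 says little.

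Triglyceride assembly centred on 0, with a median of 0.02 over 9 genes, 4 of them below 0 and 5 above. Gpam, the mitochondrial acyltransferase of the first step, read 8.93, 9.04 and 8.94 in irradiated and 8.80, 8.70 and 9.23 in control cultures, a mean difference of 0.06 (95% interval -0.27 to 0.39). Agpat3, an acyltransferase of the next step, read 8.83, 8.70 and 8.69 in irradiated and 8.58, 8.64 and 8.68 in control cultures. Those groups did not overlap, by 0.01 at their nearest, the difference was 0.11 ± 0.10 (SE), and 2 of its 3 other probe sets averaged below 0. Agpat2, the form whose loss causes lipodystrophy in people, differed by 0.39, -0.19 and -0.60. Dgat1 and Dgat2 both carry out the last step, by unrelated proteins. Dgat2 read 8.66, 8.27 and 8.22 in irradiated and 8.52, 8.28 and 8.29 in control cultures, with a difference of 0.02 (95% interval -0.22 to 0.26). Dgat1 differed by 0.11, -0.12 and -0.76, a mean of -0.26 that was -0.44 without experiment 1, -0.005 without experiment 3 and -0.043 with all probe sets averaged. The phosphatidic acid phosphatases Lpin1 and Lpin2 differed by 0.07 and -0.08, Lpin3 was dim, and Agpat1 differed by 0.03.

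Among the lipogenic regulators, Mid1ip1 had the smallest p of the 34 with the experiment as a fixed block, but not with a random block or none. It encodes a partner of acetyl-CoA carboxylase that promotes its assembly into active filaments. Its values were 8.34, 9.13 and 9.34 in irradiated and 8.82, 9.31 and 9.86 in control cultures. Its level varied widely between experiments, with SDs of 0.53 and 0.52 within irradiated and control cultures, but each irradiated culture was below its own control, by 0.48, 0.18 and 0.52. The mean was -0.39 ± 0.11 (SE; 95% interval -0.66 to -0.13), 1.31-fold lower, with an unadjusted p of 0.0103 and an adjusted p of 0.538 in limma. The unadjusted limma p was 0.131 with a random block, at an estimated correlation of 0.287, and 0.241 without a block. Thrsp, its paralogue and a marker of active lipid synthesis, read 5.93, 6.01 and 5.53 in irradiated and 5.65, 6.03 and 6.29 in control cultures. In this probe set the mean of -0.17 came from experiment 3 and was 0.13 without it. The next probe set for Thrsp had the same order at 0.22, -0.52 and -0.91, with experiment 2 clearly below 0 as well. The third, at a level of 5.44, gave -0.11, -0.02 and -0.51, below 0 in each experiment. All of them are dim. Mlxipl, which encodes ChREBP, read 6.94, 6.71 and 6.62 in irradiated and 6.04, 7.14 and 6.83 in control cultures. A control value of 6.04 in experiment 1 gave a difference of 0.90 there, and the mean of 0.09 had an interval from -0.50 to 0.68. Retsat, a retinol saturase expressed in fat cells, differed by -0.01 (95% interval -0.28 to 0.26).

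**Figure D3:**
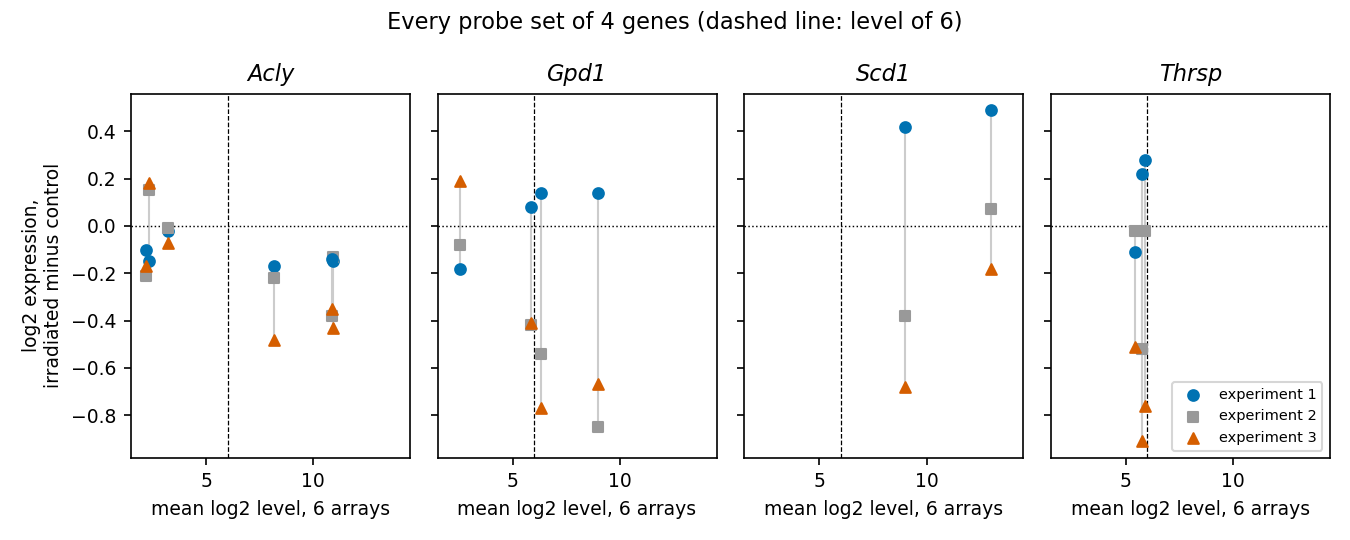
Log2 expression in irradiated minus control cultures (vertical axis) for every probe set of 4 genes, placed by its mean log2 level over 6 arrays (horizontal axis), with 1 symbol per experiment and the level of 6 dashed. The 3 bright Acly probe sets lie below 0 throughout, the 3 brightest Gpd1 and both Scd1 probe sets are above 0 in experiment 1, and all of these are below 0 in experiments 2 and 3 except the brightest of Scd1 in experiment 2.

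The 34 genes had 83 probe sets in all, and 7 members had a single one. Of the 27 other probe sets that reached a level of 6, from 18 members, 18 had the sign of the one used. None of the 83 passed adjustment in limma.

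The 3 experiments did not give the same picture. Member medians were 0.09, -0.035 and -0.245 in experiments 1, 2 and 3, where those of the 9302 expressed genes were 0.01, 0.00 and 0.00. In experiment 3, 28 of the 34 members were below 0, against 14 in experiment 1 and 20 in experiment 2. Members that were higher in experiment 1 and lower in experiment 3 numbered 17 of 34, where 21.4% of all genes had that pattern, and 3 had the opposite one (8.82%, against 21.6%). Averaged over the 34 genes, the log2 level was 8.73, 8.71 and 8.58 in irradiated and 8.68, 8.77 and 8.84 in control cultures. The irradiated array of experiment 3 was the lowest of the 6 and its control the highest, so this experiment had both extremes.

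Fat cell markers had the same order. Their medians were 0.185, -0.045 and -0.315, and 10 of 14 were higher in experiment 1 and lower in experiment 3. The mean level over those 14 ran from 9.52 to 9.72 in irradiated and from 9.57 to 9.81 in control cultures. Of 14 macrophage markers 13 were below 0 on average, where 47.9% of all genes were, with a median difference of -0.10. Their medians by experiment were -0.19, 0.05 and -0.125, and in experiment 2 there were 6 below 0 and 8 above. Their mean level was 11.27 to 11.98 in irradiated and 11.47 to 12.21 in control cultures. Stromal markers had medians of 0.07, 0.04 and 0.05. Spiked hybridisation controls on the irradiated array of experiment 3 were brighter than on its control array by 0.50, against 0.08 and -0.03 in the other experiments, while the 3 prime minus 5 prime signal of Gapdh and beta-actin, a sign of RNA quality, differed by at most 0.025 either way. The part of the cell mixture and of these arrays in the member differences was not tested. Without experiment 3 the median of the members was 0.012, with 17 of 34 below 0, and without experiment 1 it was -0.133, with 29 below 0.

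**Figure D4:**
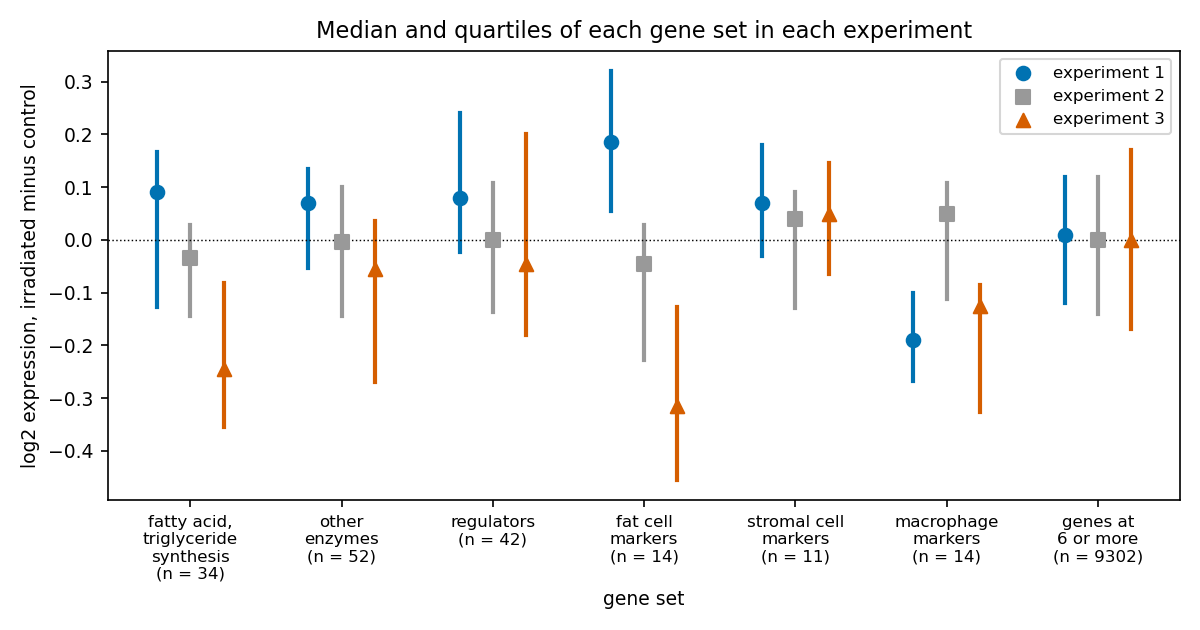
Median (symbol) and quartiles (bar) of the log2 difference, irradiated minus control (vertical axis), of each gene set in each of the 3 experiments. The synthesis genes and the fat cell markers are high in experiment 1 and low in experiment 3, stromal markers stay between 0.04 and 0.07, and the 9302 genes at a level of 6 or more have medians of 0.01, 0.00 and 0.00.

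Other enzymes of the pathway, 52 measured of 57 listed, had a median of -0.0084, with 29 below 0 and 22 above. None passed adjustment in limma, and at an unadjusted p under 0.05 there was 1, higher, where 3.7% of all genes were. In all 3 experiments 3 were lower and 3 higher, below the 15.1% and 15.7% of all genes. That gene was Plpp3, a lipid phosphate phosphatase, at 0.32 ± 0.10 (SE; adjusted limma p of 0.563), which differed by 0.21, 0.36 and 0.38. Lower in all 3 experiments were Taldo1, the transaldolase that works beside Tkt, at -0.21 ± 0.09 (SE), the acyl-CoA synthetase Acsl4 at -0.16 (-0.322 with its probe sets averaged) and the mitochondrial malonyl transferase Mcat at -0.09. H6pd, which makes NADPH in the endoplasmic reticulum, was at 0.20 (0.08 without experiment 1) and Tmem159, a lipid droplet protein, at 0.07, both higher in all 3. G6pdx and Acsl1 are not analysed here.

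Regulators of the pathway, 42 measured of 43 listed, had a median of 0.03, with 20 below 0 and 22 above. None passed adjustment in limma, with 5 lower and 6 higher at an unadjusted p under 0.05, or 11 of 42 where 8.31% of all genes were past it in either direction. Of 9302 expressed genes 584 were lower and 425 higher at that level. In all 3 experiments 8 of the 42 were lower and 9 higher, where 15.1% and 15.7% of all genes were. Since 41 of the 42 were expressed, the nearer background is that of expressed genes, at 18.7% and 18.6%, and the counts of 8 and 9 lie close to it. The 11 past the unadjusted level are a larger share than among all genes or expressed genes. The list was chosen with earlier results of these data known, so that share is a description only. The 4 expressed regulators with the smallest p are named for each direction. Prkaa1, a catalytic subunit of the kinase AMPK that switches off acetyl-CoA carboxylase, read 7.73, 7.60 and 7.44 in irradiated and 8.12, 8.04 and 7.83 in control cultures. Its groups did not overlap and its differences were nearly equal, at -0.39, -0.44 and -0.39 (adjusted limma p of 0.536). The other catalytic subunit, Prkaa2, singled out after its values were seen, was dim and differed the other way, by 0.40. Nfya, a subunit of the factor that binds CCAAT boxes, differed by -0.36 ± 0.09 (SE), but by -0.073 (unadjusted limma p of 0.475) with all its probe sets averaged. Its partners Nfyb and Nfyc, also chosen after their values were seen, differed by 0.16 and -0.18. Mbtps2, a protease that releases SREBP from the membrane, was at -0.32 (-0.18 without experiment 3) and Fbxw7, which marks SREBP for degradation, at -0.41. Insig1, which holds SREBP back and is itself an SREBP target, differed by -0.17, -0.14 and -0.18 in the 3 experiments, a narrow spread, with a mean of -0.16 (95% interval -0.39 to 0.06). Srebf1, the SREBP gene of fatty acid synthesis, read 9.80, 9.86 and 9.79 in irradiated and 9.73, 9.95 and 10.19 in control cultures, so that its differences of 0.07, -0.09 and -0.40 had the order of the members. The 4 named as higher in all 3 experiments were Cebpd, an early fat cell factor, at 0.55, Bhlhe40, a transcriptional repressor, at 0.66, Mid1, the binding partner of the Mid1ip1 protein, at 0.43 and Irs1, an insulin receptor substrate, at 0.28. Bhlhe40 was 0.225 without experiment 3 and Mid1 was 0.20 without it, and 0.124 (unadjusted limma p of 0.271) with all its probe sets averaged. Pparg and Cebpa, which drive fat cell formation, had means of -0.03 and 0.06 with mixed signs.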

How the data were processed

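Expression was measured on Affymetrix mouse arrays in 3 irradiated and 3 control cultures. The authors deposited log2 expression for 45101 probe sets, made with RMA and the affy package, with limma named beside them, per the submitters' processing notes. Versions of those tools do not appear in the labels. The 64 array control probe sets entered no test.

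Irradiated minus control was fitted with limma 3.58.1 in R 4.3.3, two-sided, the experiment being a fixed term, and p was adjusted after Benjamini and Hochberg over 45037 probe sets (threshold 0.05). The pairing follows the design text, in which each irradiated culture has its own adjacent control. Deviations of paired arrays from their group means correlated at 0.769, 0.0973 and 0.363. There were 2 residual degrees of freedom. On simulated pairs, with variances drawn from the prior of the fit, it found 73 of 100 probe sets changed by 1 on the log2 scale. It found 100 of 100 changed by 2, and 17 false calls were made beside these, of 45037 probe sets. Set against the calls made in this single run, false ones were a larger share than the threshold of 0.05. Both sizes are larger than any mean difference of a member, the largest being -0.46. The simulation therefore does not show what could be found at the sizes seen here.

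The members, the lists and the rule for named genes were chosen with earlier results of these data known. Values per array are given for 10 chosen members and for expressed members of 1 sign in all experiments. Other pathway genes are named by the same sign rule, up to 4 per list and direction, with Srebf1, Insig1, Pparg and Cebpa, and Prkaa2, Nfyb and Nfyc were added after their values were seen. Alternatives were the block, left-out experiments, scaling, a level filter, an intensity trend and averaged probe sets. The number of arrays limits the precision. The limma p-values, SEs and intervals do not rest on the spread of a single probe set alone. Its variance is combined with the prior of the fit, which is estimated over all probe sets. In the main fit the prior had 4.52 degrees of freedom, against 2 residual ones, and so had the larger weight. The spread of a probe set's own is that of its differences between experiments.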

Additional observations from a re-analysis of the deposited data

How the results depend on the processing

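No member passed adjustment under any of the 10 alternatives run (removing or randomising the block, leaving out each experiment, median centring, quantile normalization, a level filter, an intensity trend and averaged probe sets), and no other pathway gene did. The replicate block mattered for counts at an unadjusted p under 0.05. Without it 1 member remained below that level, Fasn, 5 other pathway genes against 12, and 2168 probe sets against 3631. With it as a random effect 2 probe sets passed adjustment, none of them a member, and 2 members were below the unadjusted level, Fasn and Acly. Members below that level numbered 5 under quantile normalization and 6 with an intensity trend, against 3, while probe sets below it numbered 3663 and 3873, against 3631. The level filter left 4 members below it, Acly among them (limma p of 0.0493), and 2260 probe sets, of fewer tested. With 1 experiment left out the count was 1 to 2 for members, 4 to 12 for other pathway genes and 1692 to 3748 for probe sets.

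Sign depended on single experiments for 13 members and for the regulator Pparg. Leaving one out gave -0.26 to 0.145 for Acaca, -0.09 to 0.215 for Acacb, -0.02 to 0.085 for Agpat1, -0.395 to 0.10 for Agpat2, -0.04 to 0.065 for Dgat2, -0.08 to 0.235 for Gpam, -0.205 to 0.035 for Me1, -0.32 to 0.345 for Mlxipl, -0.26 to 0.03 for Pcx, -0.10 to 0.06 for Pgd, -0.22 to 0.185 for Pparg, -0.105 to 0.095 for Retsat, -0.055 to 0.28 for Scd1 and -0.39 to 0.13 for Thrsp. Averaging all probe sets turned Scd1 to -0.043, Fads3 to -0.041, Acacb to -0.003, Agpat1 to -0.028 and Fads1 to 0.075. Fasn, Acly, Mid1ip1, Gpd1l, Elovl6 and Scd2 were among the members that kept a value below 0 in every alternative. Each was below 0 in all 3 experiments, so leaving 1 out could not turn its sign. Changing the block, the level filter or the trend leaves the mean as it is, and averaging cannot change Fasn, which has a single probe set. Their constant sign is therefore no separate support. The cause of the sign changes in the other members was not tested. Low signal limits Pck1, Lpin3, Acacb and Thrsp.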
